A study of Rattus norvegicus with 24 samples.

Results

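The circadian clock genes of the rat kidney were followed through pregnancy in 2 strains. Genes of the core clock and its output factors were taken by name, in a choice made with earlier results of these data known, and 10 were sought: Npas2, Arntl, Cry1, Per2, Per3, Nr1d1, Nr1d2, Dbp, Tef and Ciart. The count table lists 32883 genes by Ensembl identifier without symbols, and 6 of the 10 could be tied to an identifier: Npas2 (ENSRNOG00000013408), Arntl (ENSRNOG00000014448), Nr1d1 (ENSRNOG00000009329), Cry1 (ENSRNOG00000006622), Per2 (ENSRNOG00000020254) and Tef (ENSRNOG00000019383). Nr1d2, Per3, Dbp and Ciart were not analysed here. All 6 were among the 14212 genes that passed the filter on low counts and were tested. Symbols came from a supplementary gene table that holds only genes at an unadjusted p below 0.01 in some comparison of these same kidneys. Genes sought here that lack a symbol, among them Nr1d2, Per3, Dbp and Ciart, are listed there in no comparison. Genes with a symbol here therefore lean towards those that changed, and counts of changed clock genes are descriptions that support nothing by themselves.

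RNA was sequenced from kidney cross-sections, holding cortex and medulla, of 12 female rats, labelled as 2 months old, the age at which the methods say they were obtained before mating, while the growth protocol in the labels gives their age as a range of weeks. Of these, 3 were non-pregnant Sprague Dawley rats (CD-NP), 3 were Sprague Dawley rats at pregnancy day 18 (CD-P18), 3 were non-pregnant Brown Norway rats (BN-NP) and 3 were Brown Norway rats at pregnancy day 18 (BN-P18). The CD stock is outbred and served the study as a model of healthy pregnancy, while the BN strain is inbred and served as a model of placental insufficiency with maternal hypertension. The labels name no transgene and no treatment in any group. The hour of day at which each kidney was taken is not given in the sources used here. Each rat gives a single point of its daily cycle, so hour and group cannot be told apart, and neither the phase nor the amplitude of a rhythm can be read from these values.

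The molecular clock is a loop of transcription with delayed feedback. Npas2 or its relative Clock pairs with Arntl (also called Bmal1), and the pair binds E-boxes to switch on the Per and Cry genes, whose proteins return to block the pair. In a further loop the nuclear receptor Nr1d1 (Rev-erb alpha) represses Arntl and Npas2 through RORE elements, and the PAR bZIP factors Dbp, Tef and Hlf carry the rhythm to output genes through D-boxes. In the kidney this clock is known to drive daily rhythms of tubular transporters and of sodium excretion, and glucocorticoids can set its phase there.

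The letters through which these factors are known to act were looked for in the RefSeq promoters, 250 bases before to 50 bases after each start, on both strands. A window was found for 5 of the 6 genes (6 windows, since Nr1d1 has 2 starts), with Arntl listed under Bmal1. The stretches below are shown because they hold the letters of the motifs that this account of the loop names. They hold 30 bases each, read along the gene, with coordinates of the GRCr8 assembly, which is not the build of the counts, and the capitals mark the motif.
Nr1d1, first window, E'-box, chr10:84231969-84231998, minus strand: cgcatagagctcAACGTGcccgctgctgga
Nr1d1, second window, E-box, chr10:84229628-84229657, minus strand: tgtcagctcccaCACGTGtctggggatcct
Per2, E'-box, chr9:99497038-99497067, minus strand: aacgcgcgcggtCACGTTttccactatgtg
Per2, D-box, chr9:99497167-99497196, minus strand: ccatgtgcgtcTTATGTAAagagagcgacg
Tef, E-box, chr7:115206617-115206646, plus strand: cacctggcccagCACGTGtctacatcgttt
Arntl, RRE core, chr1:176766301-176766330, plus strand: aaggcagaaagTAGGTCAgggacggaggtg

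The E-box CACGTG stood 191 bases before the second Nr1d1 start and 198 bases before the Tef start, and 6.42% of all 33469 RefSeq promoter windows hold it. The E'-box CACGTT, or AACGTG when read from the other strand, stood 174 bases before the first Nr1d1 start and 62 bases before the Per2 start, and 4.83% of windows hold it. Per2 also had a D-box (TTATGTAA or TTACGTAA) 192 bases before its start, a motif of 1.01% of windows. The core of the Rev-erb response element (RRE; TAGGTCA or TGGGTCA, found in 6.6% of windows) stood 16 bases before the Arntl start. The E-box and the E'-box share their first 5 letters, and the Npas2 window held no match to any of the 4 motifs. A match describes the letters only and does not show that a factor binds there.

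Reads on genes numbered 8274159 to 11879451 in a library, and the 6 clock genes together took 0.0446 to 0.0603% of them. A clock gene had from 20 reads (Arntl in a CD-P18 rat) to 2820 reads (Nr1d1 in a CD-NP rat) in a library, so Arntl, Npas2 and Cry1 carry the largest counting error. Levels are given as CPM, the reads on a gene relative to all gene reads of the library after TMM scaling. CPM do not account for gene length and so are compared between rats, not between genes. A difference between groups was called where edgeR's quasi-likelihood test gave a Benjamini-Hochberg adjusted p under 0.1 over all genes tested and a difference over 0.32 on the log2 scale, which is a ratio of 5 to 4. The numbers 1 to 3 of the rats are those of the sample titles, and the test did not pair rats by them.

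In CD rats the clock genes moved in 2 opposite groups between the non-pregnant and the pregnant kidney. The activators Npas2 and Arntl and the repressor Nr1d1 fell at day 18, and the feedback repressors Cry1 and Per2 and the output factor Tef rose, so that 3 clock genes were higher and 3 were lower, beside 4.71% of all tested genes called in this comparison (2.56% higher and 2.15% lower) and 21.5% of those that have a symbol. In all 6 genes the 3 pregnant CD rats lay wholly on 1 side of the 3 non-pregnant CD rats, which held for 21.5% of all genes tested. In BN rats none of the 6 was called between the stages, where 1.4% of all tested genes were (0.823% higher and 0.577% lower) and 6.49% of those with a symbol.

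**Figure D1:**
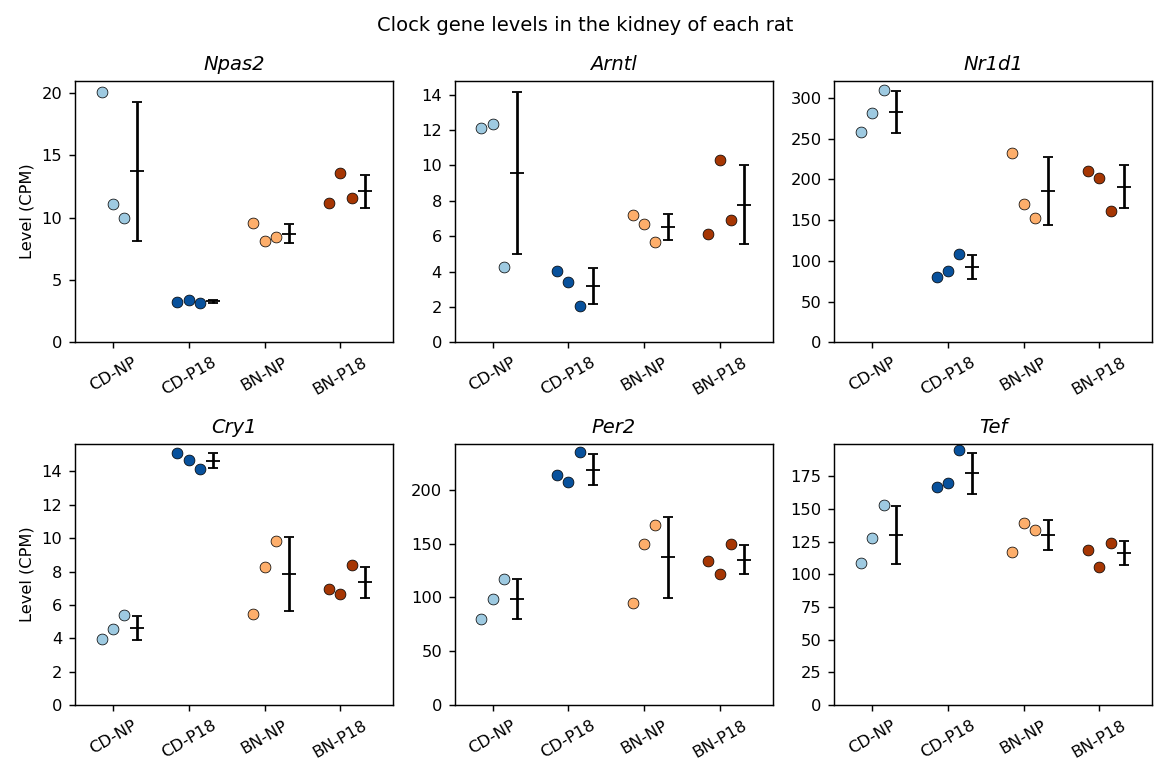
Level in CPM of the 6 clock genes in the kidney of each of 12 rats, by group (coloured points, 1 per rat), with the mean and SD of the group as a black bar and every axis starting at 0. The CD-P18 rats are the lowest for Npas2, Arntl and Nr1d1 and the highest for Cry1, Per2 and Tef, while the BN-NP and BN-P18 points overlap for every gene except Npas2.

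Npas2, a partner of Arntl in the activating pair, stood at 20.1, 11.1 and 9.97 CPM in the 3 CD-NP rats and at 3.26, 3.42 and 3.16 CPM in the 3 CD-P18 rats. The pregnant CD rats were within 1.08-fold of each other, and the lowest non-pregnant rat was well above all of them. BN-NP rats had 9.57, 8.15 and 8.43 CPM and BN-P18 rats 11.2, 13.6 and 11.6 CPM, so here the pregnant rats were the higher ones, again without overlap (14.7% of all genes do not overlap between these groups). The fitted change was a 4.20-fold fall in CD (log2 -2.07 ± 0.25 SE, adjusted p = 0.000843). In BN it was log2 0.48 ± 0.22 with a 95% interval from -0.00 to 0.96, which did not pass (adjusted p = 0.493).

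Arntl, the common partner of both activating pairs, had 12.1, 12.3 and 4.27 CPM in CD-NP and 4.03, 3.42 and 2.04 CPM in CD-P18. The gap between the groups was narrow, since CD-NP rat 3 lay just above CD-P18 rat 1. The fall was 3.01-fold (log2 -1.59 ± 0.36 SE, edgeR adjusted p = 0.0341), and it lost its call without CD-NP rat 2 (log2 -1.37, adjusted p = 0.132) or without CD-P18 rat 3 (log2 -1.35, adjusted p = 0.134). BN-NP rats had 7.18, 6.69 and 5.69 CPM and BN-P18 rats 6.12, 10.3 and 6.91 CPM, which overlapped (log2 0.26 ± 0.34, 95% interval -0.48 to 1.0, adjusted p = 0.88).

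Nr1d1, the heme-binding repressor of Arntl, had 258, 281 and 309 CPM in CD-NP and 79.7, 87.9 and 109 CPM in CD-P18. These groups were far apart, the highest pregnant rat standing well under the lowest non-pregnant rat. The fall was 3.07-fold (log2 -1.62 ± 0.16 SE, edgeR adjusted p = 0.000209). BN-NP rats had 233, 170 and 153 CPM and BN-P18 rats 210, 202 and 161 CPM, overlapping widely (log2 0.05 ± 0.15, 95% interval -0.28 to 0.37, adjusted p = 0.957). By quantitative PCR in a larger set of rats that included these, the study reported Nr1d1 as lower in pregnant CD and higher in pregnant BN rats. The rise in BN is not seen in the counts here. Nr1d1 overlaps Thra on the opposite strand, and whether the counting used strand is not given in the sources used here, so reads of the overlap cannot be told apart.

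Cry1, the repressor that closes the main loop, had 3.97, 4.54 and 5.37 CPM in CD-NP and 15.1, 14.7 and 14.2 CPM in CD-P18. The pregnant CD rats differed by 1.06-fold at most, and all lay far above the non-pregnant ones. The rise was 3.17-fold (log2 1.66 ± 0.20 SE, edgeR adjusted p = 0.000832). BN-NP rats had 5.44, 8.28 and 9.80 CPM and BN-P18 rats 6.98, 6.65 and 8.40 CPM, so the pregnant BN rats lay inside the range of the non-pregnant ones (log2 -0.10 ± 0.20, 95% interval -0.52 to 0.33, adjusted p = 0.924).

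Per2, which acts with the Cry proteins, had 80.0, 98.4 and 117 CPM in CD-NP and 214, 207 and 235 CPM in CD-P18. As with Cry1, every pregnant CD rat was above every non-pregnant one. The rise was 2.22-fold (log2 1.15 ± 0.17 SE, edgeR adjusted p = 0.00332). BN-NP rats had 95.1, 150 and 167 CPM and BN-P18 rats 134, 122 and 149 CPM, all of the latter within the range of the former (log2 -0.02 ± 0.17, 95% interval -0.40 to 0.35, adjusted p = 0.979).

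Tef, an output factor of the PAR bZIP family, moved least. Its level was 109, 128 and 153 CPM in CD-NP and 167, 170 and 195 CPM in CD-P18, a rise of 1.37-fold with a narrow gap between the groups (log2 0.45 ± 0.11 SE, edgeR adjusted p = 0.055). The call was lost without CD-NP rat 1 (log2 0.34, adjusted p = 0.118), CD-NP rat 2 (log2 0.44, adjusted p = 0.159) or CD-P18 rat 3 (log2 0.38, adjusted p = 0.177). BN-NP rats had 117, 139 and 134 CPM and BN-P18 rats 119, 106 and 124 CPM, which overlapped (log2 -0.16 ± 0.12, 95% interval -0.41 to 0.09, adjusted p = 0.711).

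None of the 6 clock genes passed in BN pregnancy by edgeR, by DESeq2 (0) or at an unadjusted p under 0.05 (0). Over all tested genes 1.4% were called by edgeR there, and 1454 of 14212 had an unadjusted p under 0.05. Changes inside the intervals above could have been missed with 3 rats a group, and for each of the 6 genes the fitted CD change lies outside the BN interval. That leaves out the error of the CD change and is not a test of the difference, which follows below. The signs of the small BN values of Nr1d1, Cry1 and Per2 depended on which rat was left out.

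The test of the difference itself, the pregnancy change in BN minus that in CD, called 4 of the 6 clock genes, 2 in each direction, beside 0.943% of all tested genes (0.443% higher and 0.5% lower) and 4.5% of those with a symbol. The difference was log2 2.54 ± 0.33 for Npas2 (adjusted p = 0.00698), 1.66 ± 0.22 for Nr1d1 (adjusted p = 0.00698), -1.76 ± 0.28 for Cry1 (adjusted p = 0.0204) and -1.18 ± 0.25 for Per2 (adjusted p = 0.0562). A positive value here belongs to a gene that fell in CD and a negative value to a gene that rose in CD. Per2 lost this call without CD-NP rat 2 (adjusted p = 0.136), CD-P18 rat 1 (0.116), CD-P18 rat 3 (0.126), BN-NP rat 2 (0.185) or BN-P18 rat 2 (0.166). Arntl (log2 1.85 ± 0.50, edgeR adjusted p = 0.147) and Tef (log2 -0.61 ± 0.16, adjusted p = 0.139) did not pass, though both did without CD-NP rat 3 (adjusted p = 0.0283 and 0.0602) and by DESeq2 (0.0224 and 0.0307).

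**Figure D2:**
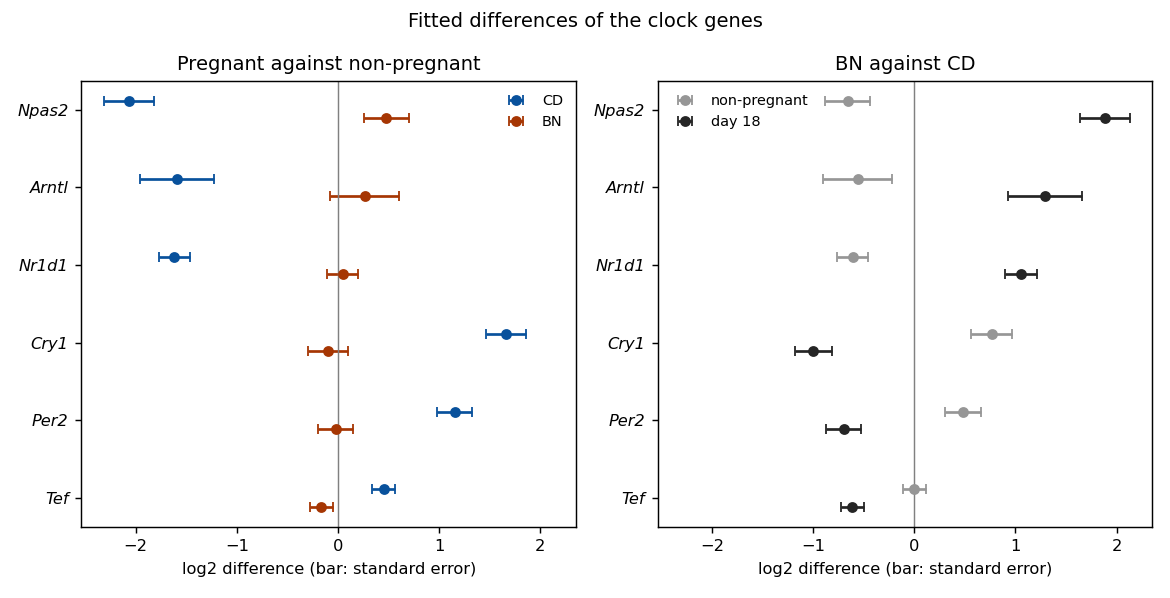
Fitted log2 differences of the 6 clock genes, with bars of 1 standard error, between pregnant and non-pregnant rats of each strain (left) and between BN and CD rats at each stage (right). In CD Npas2, Arntl and Nr1d1 lie between -2.07 and -1.59 and Cry1 and Per2 at 1.66 and 1.15, while the BN values lie between -0.16 and 0.48.

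Nr1d1 and Cry1 differed between the strains in both stages, in opposite directions before pregnancy and at day 18. In non-pregnant rats, where 8.38% of all tested genes were called (3.83% higher and 4.55% lower in BN, and 35.5% of those with a symbol), Nr1d1 was lower in BN (log2 -0.61 ± 0.15, adjusted p = 0.0336) and Cry1 was higher (log2 0.76 ± 0.21, adjusted p = 0.046). Npas2 was at log2 -0.66 ± 0.22 without overlap between the groups but did not pass (edgeR adjusted p = 0.102), nor did Arntl (-0.56 ± 0.34, adjusted p = 0.385), Per2 (0.48 ± 0.17, adjusted p = 0.13) or Tef (0.00 ± 0.12, adjusted p = 0.996, of either sign depending on the rat left out and with upper-quartile scaling). Groups of 3 that do not overlap were found for 3 of the 6 clock genes here (Npas2, Nr1d1 and Cry1) and for 24.4% of all genes. Both calls depended on single rats. Cry1 lost its call without CD-NP rat 1 (adjusted p = 0.112), CD-NP rat 2 (0.126), BN-NP rat 2 (0.138) or BN-NP rat 3 (0.176), and Nr1d1 without BN-NP rat 2 (0.132) or BN-NP rat 3 (0.121). With CD-NP rat 3 left out 5 clock genes were called, all but Tef, with adjusted p = 0.0441 for Npas2, 0.0682 for Arntl and 0.0889 for Per2. Npas2 was also called without CD-NP rat 2 (adjusted p = 0.0958) and Per2 without BN-NP rat 1 (0.0123). By DESeq2 both Npas2 (adjusted p = 0.0898) and Per2 (0.0673) passed.

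At day 18, 3 of the 6 clock genes were higher and 3 lower in BN than in CD, beside 9.6% of all tested genes called (4.9% higher and 4.7% lower, and 39.9% of those with a symbol). Npas2 was 3.69-fold higher in BN (log2 1.89 ± 0.25, adjusted p = 0.000471), Nr1d1 2.08-fold higher (1.05 ± 0.16, adjusted p = 0.00104) and Arntl 2.45-fold higher (1.29 ± 0.37, adjusted p = 0.0491). Cry1 was 2.0-fold lower (log2 -1.0 ± 0.19, adjusted p = 0.0055), Per2 1.62-fold lower (-0.70 ± 0.17, adjusted p = 0.0254) and Tef 1.53-fold lower (-0.61 ± 0.12, adjusted p = 0.00573). No BN-P18 rat overlapped a CD-P18 rat in any of the 6, which held for 26.5% of all genes. Arntl lost its call without CD-P18 rat 2 (adjusted p = 0.103), CD-P18 rat 3 (0.166) or BN-P18 rat 2 (0.191), and Per2 without BN-P18 rat 2 (0.102). The same 3 CD-P18 rats enter this comparison and that of CD pregnancy, so the mirrored directions are not separate evidence.

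A ratio of 2 genes within a kidney does not depend on the scaling of the libraries. There were 0.197, 0.41 and 0.539 Cry1 reads for each Npas2 read in the CD-NP rats and 4.63, 4.29 and 4.48 in the CD-P18 rats. In BN-NP rats the ratio was 0.568, 1.02 and 1.16 and in BN-P18 rats 0.625, 0.49 and 0.725. Cry1 reads thus outnumbered Npas2 reads by more than 4 to 1 in every CD-P18 kidney, and the BN-NP and BN-P18 ranges overlapped. Per2 reads for each Arntl read were 6.62, 7.97 and 27.3 in CD-NP and 53.1, 60.7 and 115 in CD-P18, against 13.3, 22.4 and 29.4 in BN-NP and 21.9, 11.9 and 21.6 in BN-P18.

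**Figure D3:**
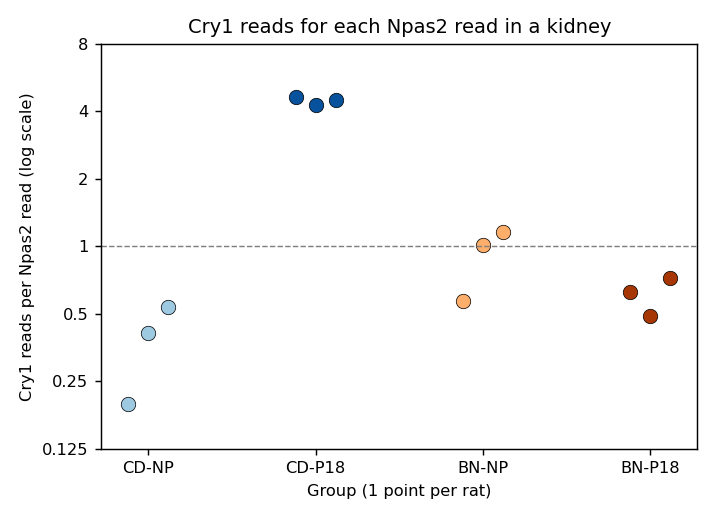
Cry1 reads for each Npas2 read in each kidney, by group, on a log scale with base 2, 1 point per rat and a dashed line at equal reads. The 3 CD-P18 rats sit at 4.29 to 4.63 and every other rat at 1.16 or less.

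The rats of a group also differed among themselves. CD-NP rat 3 had the lowest Npas2 and Arntl of its group and the highest Cry1, Per2 and Tef, but also the highest Nr1d1. BN-NP rat 1 had the highest Npas2, Arntl and Nr1d1 of its group and the lowest Cry1, Per2 and Tef. BN-P18 rat 2 had the highest Npas2 and Arntl and the lowest Cry1, Per2 and Tef. CD-P18 rat 3 had the lowest Npas2, Arntl and Cry1 of its group and the highest Nr1d1, Per2 and Tef. The spread between the highest and the lowest rat reached 2.89-fold for Arntl in CD-NP, 2.02-fold for Npas2 in CD-NP and 1.8-fold for Cry1 in BN-NP. The median SD of log2 CPM over the 6 clock genes was 0.26 in CD-NP and 0.24 in BN-NP, where the median over all tested genes was 0.149 and 0.14. In the pregnant groups it was 0.11 in CD-P18 and 0.16 in BN-P18, beside 0.13 and 0.147 over all genes. These are descriptions of 3 rats a group and were not tested.

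**Figure D4:**
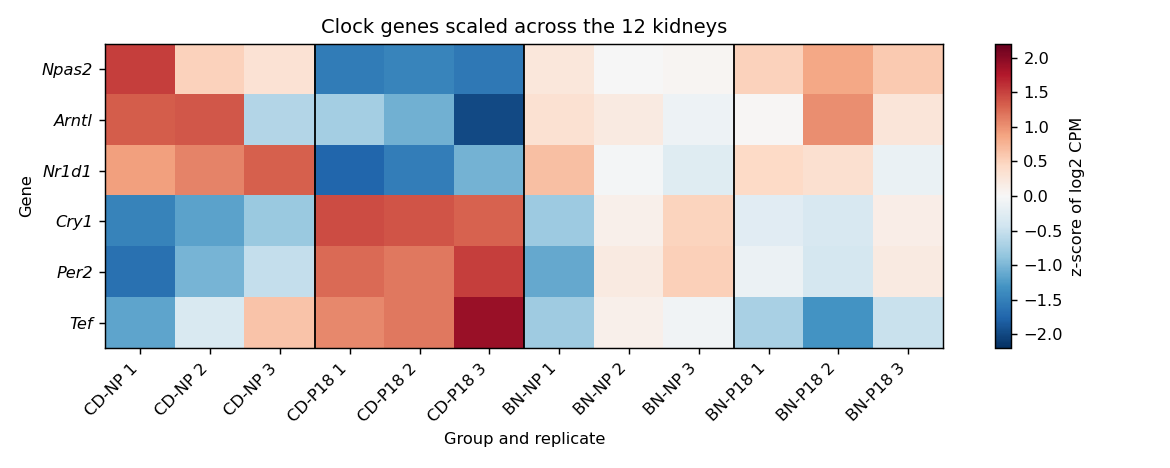
Level of the 6 clock genes in each of the 12 kidneys as a z-score of log2 CPM across the 12 (red high, blue low), with lines between the 4 groups. CD-P18 is blue for Npas2, Arntl and Nr1d1 and red for Cry1, Per2 and Tef, CD-NP rats 1 and 2 show the reverse, and the BN rats are mostly paler.

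Other genes tied to the clock were taken from a list of 19, of which 6 have a symbol here. In CD pregnancy 4 of the 6 rose and none fell, beside the 4.71% of all tested genes and 21.5% of genes with a symbol that were called, with a median log2 difference of 0.65 beside -0.01 over all genes tested. Usp2, a deubiquitinase known to act on clock proteins, had 20.3, 26.2 and 40.0 CPM in CD-NP and 75.6, 61.7 and 86.3 CPM in CD-P18, a 2.60-fold rise (adjusted p = 0.00242). Wee1, a cell-cycle kinase with a clock-driven promoter, rose 1.74-fold (adjusted p = 0.0211), Per1, the close relative of Per2, rose 1.62-fold (adjusted p = 0.0501) and Hlf, the relative of Tef, rose 1.51-fold (adjusted p = 0.0319). Rora, an activator of Arntl that competes with Nr1d1, was at 1.23-fold (adjusted p = 0.057), under the fold required, and Csnk1d, the casein kinase that marks Per proteins for decay, at 1.15-fold (adjusted p = 0.101). Per1 lost its call without CD-NP rat 2 (adjusted p = 0.104), CD-P18 rat 1 (0.153) or CD-P18 rat 3 (0.121).

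None of these 6 was called by edgeR in BN pregnancy (0 by DESeq2), beside 1.4% of all tested genes and 6.49% of those with a symbol. Rora alone had an unadjusted p under 0.05 there (log2 -0.23 ± 0.08, adjusted p = 0.259), as had 1454 of the 14212 tested genes. Usp2 stood at 42.5, 49.7 and 47.5 CPM in BN-NP and 54.0, 39.6 and 47.9 CPM in BN-P18. The pregnancy change differed between the strains for Usp2 (log2 -1.36 ± 0.28, BN minus CD, adjusted p = 0.0524) and Rora (-0.53 ± 0.11, adjusted p = 0.0551). Such a difference was called for 0.943% of all tested genes and 4.5% of those with a symbol. In non-pregnant rats Usp2 was 1.62-fold higher in BN (adjusted p = 0.0585) and Rora 1.27-fold higher (adjusted p = 0.0196). These were 2 of the 6, beside 3.83% of all tested genes called higher and 35.5% of genes with a symbol called. At day 18 Wee1 (1.62-fold, adjusted p = 0.0198), Usp2 (1.58-fold, adjusted p = 0.0507) and Hlf (1.39-fold, adjusted p = 0.0471) were lower in BN. These were 3 of the 6, beside 4.7% of all tested genes called lower and 39.9% of genes with a symbol called. Calls of this group often depended on single rats. The difference for Usp2 lost its call without CD-NP rat 2, CD-P18 rat 1, CD-P18 rat 3, BN-NP rat 2 or BN-P18 rat 2 (adjusted p = 0.116 to 0.167), and that for Rora without CD-NP rat 3, CD-P18 rats 1 or 2, BN-NP rats 1 or 2 or BN-P18 rat 2 (0.108 to 0.155). In non-pregnant rats the Usp2 call was lost without CD-NP rats 1 or 2 or BN-NP rats 2 or 3 (adjusted p = 0.134 to 0.177), and Rora fell below the required fold without CD-NP rats 1 or 3 or BN-NP rat 1 (log2 0.29 to 0.31). At day 18 Usp2 lost its call without CD-P18 rats 1 or 3 or BN-P18 rats 2 or 3 (adjusted p = 0.108 to 0.18) and Hlf without CD-P18 rats 1 or 2 or BN-P18 rat 2 (0.109 to 0.172), while Wee1 kept it in all 19 alternatives.

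Kidney genes known as outputs of the clock were taken from a list of 12, of which 4 have a symbol here. Slc12a3, the thiazide-sensitive sodium chloride cotransporter of the distal convoluted tubule, had 857, 807 and 880 CPM in CD-NP and 602, 641 and 635 CPM in CD-P18, a 1.35-fold fall (edgeR adjusted p = 0.012). BN-NP rats had 826, 667 and 736 CPM and BN-P18 rats 852, 761 and 777 CPM, which overlapped, and the pregnancy change differed between the strains by log2 0.54 ± 0.12 (adjusted p = 0.0695), a call lost without any 1 of 9 rats, all but CD-NP rat 1, BN-NP rat 1 and BN-P18 rat 3 (adjusted p = 0.106 to 0.203). Slc6a6, the taurine transporter, rose 1.40-fold in CD pregnancy (adjusted p = 0.0264) and Slc9a3, the proximal sodium-hydrogen exchanger, rose 1.26-fold (adjusted p = 0.0723). Both lost the call without CD-NP rat 2 (adjusted p = 0.111 and 0.207), and Slc9a3 also without CD-NP rat 1 (0.155), CD-P18 rat 1 (0.157) or CD-P18 rat 3 (0.218), with only the libraries compared (0.113) and with upper-quartile scaling (log2 0.318, below the required fold). Scnn1a, the alpha subunit of the epithelial sodium channel, was at 1.23-fold (adjusted p = 0.123). None of the 4 was called by edgeR between the BN stages (0 by DESeq2 and 0 at an unadjusted p under 0.05). In non-pregnant rats none was called between the strains (0 by DESeq2 and 3 at an unadjusted p under 0.05). Over all tested genes 1.4% were called between the BN stages and 8.38% between the non-pregnant strains (6.49% and 35.5% of those with a symbol). An unadjusted edgeR p under 0.05 was found for 1454 and 2997 of the 14212 tested genes in these 2 comparisons. At day 18 Scnn1a was 1.60-fold lower (adjusted p = 0.000866) and Slc6a6 1.43-fold lower (adjusted p = 0.00942) in BN than in CD, and Slc12a3 was 1.27-fold higher (adjusted p = 0.0205), which fell below the required fold without CD-P18 rat 1 (log2 0.32) or BN-P18 rat 1 (log2 0.30).

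Genes that respond to glucocorticoids moved beside the clock genes. Of a list of 10, which shares Per1 with the list of clock genes, 7 have a symbol, and 6 of the 7 rose and none fell in CD pregnancy, beside 2.56% of all tested genes higher and 21.5% of genes with a symbol called, with a median log2 difference of 0.95 beside -0.01 over all genes. Fkbp5, a co-chaperone of the glucocorticoid receptor, had 19.1, 27.1 and 27.0 CPM in CD-NP and 101, 57.1 and 87.9 CPM in CD-P18 (3.39-fold, edgeR adjusted p = 0.00782). Tsc22d3, the leucine zipper protein known as Gilz, had 73.2, 54.0 and 76.4 CPM and then 208, 147 and 184 CPM (2.65-fold, adjusted p = 0.001). In both genes every pregnant CD rat was above every non-pregnant one, and 21.5% of all genes tested do not overlap between these groups. Zbtb16, a zinc finger repressor, rose 2.98-fold (adjusted p = 0.0029), Cebpd 1.93-fold (adjusted p = 0.00711) and Ddit4 1.48-fold (adjusted p = 0.0379), the last losing its call without CD-NP rat 2 (0.142) or CD-P18 rat 1 (0.113).

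In BN rats Fkbp5 was at 63.9, 64.4 and 85.4 CPM before pregnancy and at 92.6, 34.5 and 74.4 CPM at day 18, and Tsc22d3 at 105, 138 and 159 CPM and then 123, 102 and 138 CPM. None of the 7 genes was called by edgeR between the BN stages (1 by DESeq2), beside 1.4% of all tested genes and 6.49% of those with a symbol. Cebpd and Ddit4 alone had an unadjusted p under 0.05 there (log2 0.55 ± 0.17 and 0.49 ± 0.14, adjusted p = 0.194 and 0.155). This held for 1454 of the 14212 tested genes. In non-pregnant rats 3.83% of all tested genes were called higher in BN, and 35.5% of genes with a symbol were called. Of the 7, 4 were higher in BN, namely Fkbp5 (2.93-fold, adjusted p = 0.00914), Zbtb16 (2.24-fold, adjusted p = 0.0103), Tsc22d3 (1.97-fold, adjusted p = 0.00486) and Klf9 (1.39-fold, adjusted p = 0.0459). At day 18, 2 of the 7 were lower in BN, Tsc22d3 (1.49-fold, adjusted p = 0.0584) and Ddit4 (1.37-fold, adjusted p = 0.0525). Beside this, 4.7% of all tested genes were called lower and 39.9% of genes with a symbol were called. Klf9 lost its call without CD-NP rats 1 or 2 or BN-NP rats 1 or 2 (adjusted p = 0.107 to 0.145). At day 18 Tsc22d3 lost it without CD-P18 rats 1 or 3 or BN-P18 rats 1 or 2 (0.11 to 0.212) and Ddit4 without CD-P18 rats 1 or 2 or BN-P18 rats 1 or 3 (0.121 to 0.156). The pregnancy change differed between the strains for Fkbp5 (log2 -1.85 ± 0.42, adjusted p = 0.0844), Tsc22d3 (-1.55 ± 0.24, adjusted p = 0.0204) and Zbtb16 (-1.40 ± 0.32, adjusted p = 0.0887). These were 3 of the 7, beside 0.943% of all tested genes and 4.5% of those with a symbol. Of the 3 calls that of Tsc22d3 was kept. Fkbp5 lost its call without any 1 of 9 rats, all but CD-P18 rat 2 and BN-P18 rats 1 and 2 (adjusted p = 0.101 to 0.193). Zbtb16 lost its call without any BN-NP rat, CD-NP rats 1 or 2 or CD-P18 rats 1 or 3 (0.104 to 0.222). Glucocorticoid levels were not among the data analysed here, and the part of these hormones in the clock values was not tested.

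**Figure D5:**
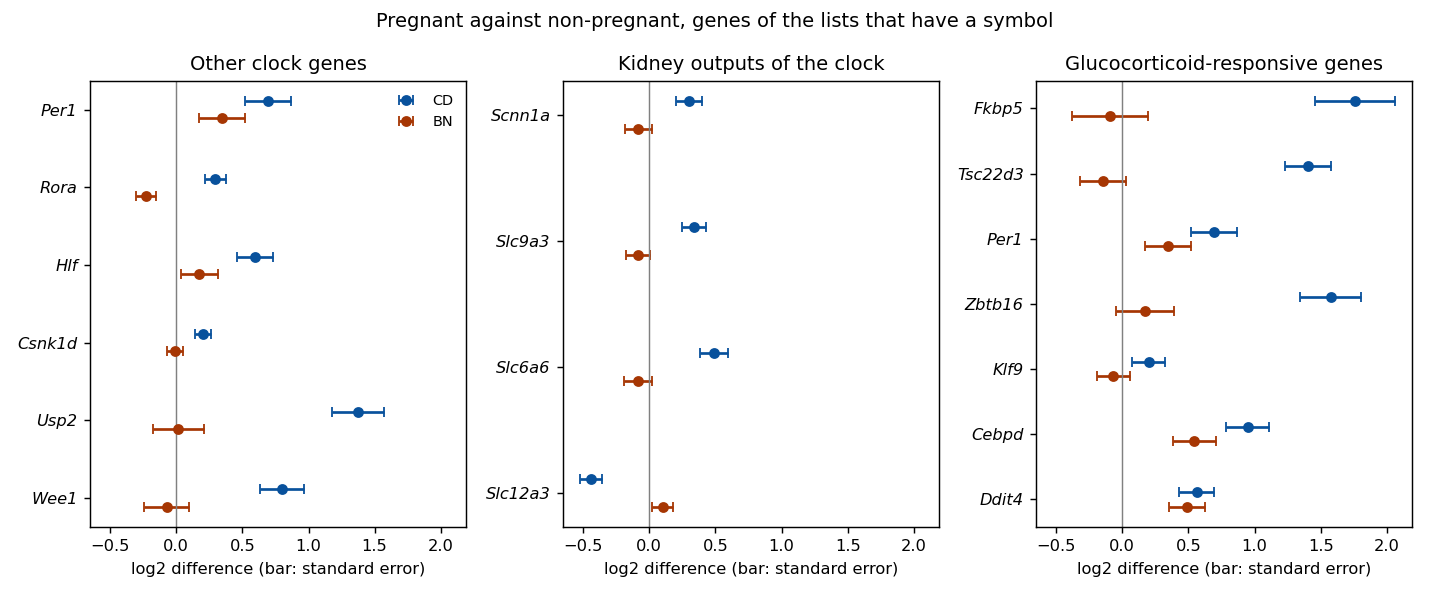
Fitted log2 difference between pregnant and non-pregnant rats, with bars of 1 standard error, for the genes with a symbol in 3 lists (other clock genes, kidney outputs of the clock and glucocorticoid-responsive genes), in CD (blue) and BN (brown). Fkbp5, Zbtb16, Tsc22d3 and Usp2 lie between 1.38 and 1.76 in CD and between -0.15 and 0.17 in BN, and Slc12a3 is the only gene below 0 in CD.

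The tested genes whose pattern over the 12 kidneys was most like that of 3 clock genes were found by the root mean square difference of z-scores of log2 CPM, which is 0 for equal patterns. For Cry1 the nearest of all was Per2, at 0.185, followed by Ahctf1 (0.357), Top1 (0.375), Tsc22d3 (0.41), Usp2 (0.414) and ENSRNOG00000017456, which has no symbol here (0.424). For Nr1d1 they were Tpcn1 (0.269), Smad3 (0.299), Sdc4 (0.31), ENSRNOG00000054511 (0.325) and Osbpl3 (0.347), with the transporter Slc12a3 next (0.381). For Npas2 they were ENSRNOG00000054553 (0.41), Cdk14 (0.418), Rasgrp3 (0.424), Mtrf1 (0.444) and Rnf144a (0.455), while Arntl and Nr1d1 followed at ranks 15 and 16 (both 0.508). A smaller prior count on the log scale kept all 5 genes of each list. The likeness is over 12 libraries that hold the same group differences.

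Markers of cell types were read in the same libraries, and their part in the clock values was not tested. Calls of markers other than Slc12a3 were not followed when single rats were left out or with other scalings or filters. The summed level of 7 of 8 macrophage markers ranged from 136 to 159 CPM in CD-NP and from 189 to 227 CPM in CD-P18, against 124 to 141 CPM in BN-NP and 165 to 176 CPM in BN-P18. Csf1r and Ptprc were the largest parts of this sum in every group. In CD pregnancy 6 of the 7 rose, from log2 0.40 for Csf1r (edgeR adjusted p = 0.0845), whose CD groups overlapped, to 1.86 for Mrc1. Ptprc was at -0.13 (edgeR adjusted p = 0.669). Beside this, 2.56% of all tested genes were called higher and 21.5% of genes with a symbol were called. In BN pregnancy only C1qa (log2 0.67, edgeR adjusted p = 0.0786) and C1qc (0.62, adjusted p = 0.0951) were called higher. In that comparison 0.823% of all tested genes were called higher and 6.49% of genes with a symbol were called. There Mrc1 was at -0.22 (edgeR adjusted p = 0.79). By edgeR the pregnancy change differed between the strains for Mrc1 (log2 -2.08 ± 0.27, BN minus CD, adjusted p = 0.00698) and C1qb (-1.02 ± 0.23, adjusted p = 0.0868). These were 2 of the 7, beside 0.943% of all tested genes and 4.5% of those with a symbol. For the proximal tubule 3 of 5 markers had a symbol and summed to 2870 to 3680 CPM in CD-NP, 2130 to 2750 CPM in CD-P18, 2410 to 2970 CPM in BN-NP and 1860 to 2500 CPM in BN-P18. Most of that sum was Slc34a1, which fell in CD pregnancy (log2 -0.47, adjusted p = 0.0818), while Slc5a2 (-0.10) and Slc22a6 (0.11) did not pass. In BN pregnancy Slc5a2 alone was called (log2 -0.64, edgeR adjusted p = 0.0767). Of 3 markers of the thick limb and distal tubule only Slc12a3 has a symbol, so its fall in CD pregnancy from 807 to 880 CPM to 602 to 641 CPM is that of a distal tubule marker as well as of an output of the clock. The erythrocyte marker Alas2 was at 4.43 to 5.37 CPM in CD-NP and 7.49 to 9.0 CPM in CD-P18. It was not called (log2 0.73, edgeR adjusted p = 0.157), though these groups did not overlap, as for 21.5% of all genes tested. In BN-NP it was at 4.64 to 7.39 CPM and in BN-P18 at 4.83 to 10.4 CPM. Markers of the collecting duct and of endothelium have no symbol here. In whole cross-sections fewer cells of a type and less RNA per cell cannot be told apart.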

How the data were processed

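RNA-seq libraries (NuGEN, stranded, depleted of ribosomal RNA) were made from 12 kidneys. Per the submitters' notes and the methods, the authors trimmed reads with Trimmomatic, aligned them to Rnor_6.0, an assembly of the BN strain, with STAR 2.5.2 and deposited raw counts per gene from HTSeq 0.6.1. The strand setting and annotation release are not given in the sources used here. Summary lines, 72.5 to 75.6% of all entries per library, stayed out of library sizes and tests. Samples were grouped by their titles. The gene table's columns of fold changes, mean levels and p-values, which the authors computed, served only to tie symbols to identifiers: both of the first 2 had to match the refitted counts within 0.002 log2 in every comparison listed. This linked 2867 of 3064 symbols, and the 3 identifiers given beforehand were recovered. With the sign of the fold change turned, 0.424% found any match. The clock genes and lists were chosen with earlier results of these data known.

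R 4.3.3 and edgeR 4.0.16 were used: filterByExpr (14212 of 32883 genes), TMM, 1 quasi-likelihood fit of 12 libraries without covariates, the 4 comparisons of 2 groups and the interaction of pregnancy and strain, which was called at an adjusted p under 0.1 alone. Standard errors come from the F statistic. Log2 CPM used a prior count of 2. The script was tested on simulated data. Genes named were the clock genes, genes of the lists called in some comparison, and the 5 nearest to Npas2, Cry1 and Nr1d1. Rats were separate animals. Alternatives were DESeq2 1.42.0, other scalings and filters, the compared libraries alone, a replicate block, stricter thresholds and leaving out each rat. The bisulfite sequencing files were not used here, since promoters could not be placed on their build. Podocyte markers are not reported here.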

Additional observations from a re-analysis of the deposited data

Results flagged for a closer look

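Cell type markers outside the gene lists were not searched for this section. For 10 genes a result was singled out because the pregnancy change differed between BN and CD rats by the interaction test of edgeR. Among the clock genes, given as the log2 change in BN minus that in CD, these were Npas2 (2.54), Nr1d1 (1.66), Cry1 (-1.76) and Per2 (-1.18). The calls of Npas2, Nr1d1 and Cry1 were kept in all 18 alternatives, with adjusted p up to 0.0327, 0.0347 and 0.0665, while that of Per2 was lost in 5 of 18 (adjusted p up to 0.185).

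Among the genes of the lists they were Usp2 (-1.36), Rora (-0.53), Slc12a3 (0.54), Fkbp5 (-1.85), Tsc22d3 (-1.55) and Zbtb16 (-1.40). Tsc22d3 kept its call in all 18 alternatives (adjusted p up to 0.0655). The others lost it when single rats were left out, Usp2 in 5 of 18 alternatives, Rora in 6, Zbtb16 in 7 and Slc12a3 and Fkbp5 in 9 each, with adjusted p up to 0.167, 0.155, 0.222, 0.203 and 0.193. Their directions were kept in every alternative run.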

How the results depend on the processing

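The number of clock genes called was within 1.5 times its main value under every alternative, leave-one-out aside, in CD pregnancy (6), BN pregnancy (0), BN-P18 against CD-P18 (6) and the difference of the pregnancy changes (4). For BN-NP against CD-NP, with 2 called, it was 4 without a filter on low counts, 4 by DESeq2 and 1 with only the libraries compared. Leaving out 1 rat at a time gave 4 to 6 genes in CD pregnancy, 0 to 0 in BN pregnancy, 0 to 5 in BN-NP against CD-NP, 4 to 6 in BN-P18 against CD-P18 and 3 to 6 for the difference, and calls lost this way are named in the report. Values that changed sign were all uncalled. In BN pregnancy, leaving out 1 rat at a time moved Cry1 from log2 -0.30 to 0.11, Nr1d1 from -0.073 to 0.24 and Per2 from -0.23 to 0.15, and in BN-NP against CD-NP it moved Tef from -0.11 to 0.13, where upper-quartile scaling gave -0.0028. The cause was not tested.

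Rats of the same number in different groups mostly did not deviate together (r of -0.188 to 0.27, over 0.1 in 2 of 12 pairs, highest with their own number in 5 of 12). The largest values, 0.27 and 0.202, were those of rats 1 and 3 between the BN stages, each highest with its own number. Such correlations cannot exclude a shared batch, and the main test did not pair the rats. With the number as a replicate block 6 clock genes were called in CD pregnancy, 0 in BN pregnancy, 3 in BN-NP against CD-NP, 6 in BN-P18 against CD-P18 and 6 for the difference, and Per2 in BN pregnancy was at log2 0.0012. Over all tested genes this block moved the calls in BN pregnancy from 199 to 286 and those for the difference from 134 to 235. Other scalings moved the median of all genes by at most 0.0329. Planned values of promoter methylation were not run, since no annotation of the build was given. Among the 6 clock genes low counts limit Arntl most, with as few as 20 reads, and no value speaks of another hour of day.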

Other observations

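Immediate early genes, the fast transcription factors that respond quickly to stimuli, were read beside the clock genes. Of a list of 8, 7 have a symbol. None was called by edgeR between the CD stages (1 by DESeq2 and 2 at an unadjusted p under 0.05). Over all tested genes 4.71% were called there (21.5% of those with a symbol), and 2427 of 14212 had an unadjusted p under 0.05. At day 18, 5 of the 7 were higher in BN than in CD, beside 4.9% of all tested genes higher and 39.9% of genes with a symbol called. The 5 were Fos (log2 2.21 ± 0.48, adjusted p = 0.0137), Atf3 (1.55 ± 0.32, adjusted p = 0.0105), Fosb (1.88 ± 0.60, adjusted p = 0.0768), Ier2 (0.81 ± 0.18, adjusted p = 0.0135) and Junb (0.76 ± 0.20, adjusted p = 0.0332). Nr4a1 was higher in BN-P18 than in BN-NP (log2 0.99 ± 0.24, adjusted p = 0.0951). The difference of the pregnancy change between the strains was called by edgeR for none of the 7 (2 by DESeq2 and 3 at an unadjusted p under 0.05). Over all tested genes it was called for 0.943% (4.5% of those with a symbol), and 1742 of 14212 had an unadjusted p under 0.05. Fosb had only 2 to 11 reads in CD-P18 and 8 to 37 in BN-P18, and these groups overlapped in CPM, while Fos had 13 to 24 reads in CD-P18. Fosb lost its call without CD-P18 rats 2 or 3 or BN-P18 rats 1 or 2 (adjusted p up to 0.327) and under the replicate block (0.112), and Junb without CD-P18 rat 3 or BN-P18 rat 1 (up to 0.112). Nr4a1 lost its call in 10 of 19 alternatives (adjusted p up to 0.391), namely under the replicate block (0.125), with only the libraries compared (0.13) and without any BN-NP rat, any CD-P18 rat, CD-NP rat 3 or BN-P18 rat 2. Their part in the clock values was not tested.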
